A study of Mus musculus with 19 samples.

Results

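The 10 genes described here encode subunits of the Polycomb repressive complexes, and the measurement is where SOX3 was found on them in the testis of the young mouse. The genes were taken from a list of names, with no measured value used in the rule, though earlier results of these data were known. They are 10 of the 26182 genes of the curated RefSeq annotation of GRCm38 (mm10). They are Ezh1, Ezh2, Eed, Suz12 and Jarid2 for Polycomb repressive complex 2 (PRC2), and Rnf2, Bmi1, Pcgf6, Mga and L3mbtl2 for PRC1. All peaks within 2 kb of a start site and all peaks in the body of each gene were read out, separately in each replicate.

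SOX3 is a transcription factor with an HMG-box DNA-binding domain that is made in spermatogonia, the germ cells that sustain sperm production. The study followed spermatogonial regulators by chromatin immunoprecipitation and sequencing (ChIP-seq), and 2 SOX3 ChIP-seq replicates and 2 SOX3 ChIP-nexus replicates from whole testis at postnatal day 7 were used here. Per the methods, the mice had a C57BL/6J background and the chromatin came from tubules pooled over several animals, and per the labels SOX3 antibodies from SCBT and from EMD Milipore were used. There was 1 condition, with neither a mutant nor a treatment, so that nothing below is a contrast between conditions. Whole testis also holds somatic cells, and the peak lists do not say which cells a peak came from.

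Polycomb proteins keep genes silent by marking histones. PRC2 methylates lysine 27 of histone H3, with EZH2 or EZH1 as the enzyme, SUZ12 as the scaffold and EED as the subunit that reads the finished mark, while JARID2 is an accessory subunit that helps to bring the complex to DNA. PRC1 ubiquitinates histone H2A through RNF2 (RING1B) bound to a PCGF protein such as BMI1 or PCGF6, and PCGF6 works with MGA and L3MBTL2 in a variant complex known for silencing germline genes in cells outside the germline.

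Each of the 10 genes had a SOX3 promoter peak in both replicates, and this was so for 52.2% of all genes. Among all genes 62.7% had one in replicate 1 and 54.7% in replicate 2. At 10 of 10 genes the peak lay over the start site in both replicates, against 45.5% of all genes. At 10 of 10 the q score, which is −10 times the log10 of the false discovery rate given by the peak caller, was above 60 in both replicates, against 35.2% of all genes. These shares have to be read beside the base composition of the promoters. All 10 promoters were rich in CpG, a dinucleotide frequent in the promoters of broadly used genes, compared with 43.9% of all genes. Of the 10274 protein-coding autosomal genes with such a promoter, 91.0% had a promoter peak in both replicates, 86.8% had a peak over the start site in both and 69.8% reached a q score above 60 in both. The presence of a peak at 10 of 10 genes was therefore close to the share in genes of like promoters.

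The sequences just upstream of 5 of these start sites are shown because they span the order of peak strength described below, from Suz12 at the top to L3mbtl2 at the bottom, with the paralogs Ezh2 and Ezh1 between. Each is the 250 bases before the curated start site, from RefSeq (GRCm38.p6), written 5′ to 3′ on the strand of the gene, with every CpG in capitals.
Suz12, chr11:79992856-79993105, plus strand: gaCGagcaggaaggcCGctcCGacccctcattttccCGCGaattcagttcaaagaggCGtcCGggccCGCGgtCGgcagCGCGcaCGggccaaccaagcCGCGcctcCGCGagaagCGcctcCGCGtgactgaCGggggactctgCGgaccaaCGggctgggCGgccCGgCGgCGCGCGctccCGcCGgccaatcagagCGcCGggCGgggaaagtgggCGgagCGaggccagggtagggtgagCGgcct
Eed, chr7:89980977-89981226, minus strand: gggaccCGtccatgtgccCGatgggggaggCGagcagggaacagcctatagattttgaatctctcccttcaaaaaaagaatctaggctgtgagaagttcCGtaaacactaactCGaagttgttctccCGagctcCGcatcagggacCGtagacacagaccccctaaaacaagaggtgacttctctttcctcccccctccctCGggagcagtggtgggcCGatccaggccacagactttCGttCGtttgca
Ezh2, chr6:47595031-47595280, minus strand: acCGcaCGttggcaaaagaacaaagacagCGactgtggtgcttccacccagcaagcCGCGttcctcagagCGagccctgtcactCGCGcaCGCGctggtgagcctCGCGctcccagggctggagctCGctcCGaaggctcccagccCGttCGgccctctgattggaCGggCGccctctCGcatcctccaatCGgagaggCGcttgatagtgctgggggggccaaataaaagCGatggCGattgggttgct
Ezh1, chr11:101226464-101226713, minus strand: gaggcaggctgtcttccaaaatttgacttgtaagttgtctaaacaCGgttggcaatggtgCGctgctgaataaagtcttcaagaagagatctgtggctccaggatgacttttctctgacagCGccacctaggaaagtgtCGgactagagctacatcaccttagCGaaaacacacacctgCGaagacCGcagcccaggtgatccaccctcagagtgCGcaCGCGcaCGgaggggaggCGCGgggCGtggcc
L3mbtl2, chr15:81663639-81663888, plus strand: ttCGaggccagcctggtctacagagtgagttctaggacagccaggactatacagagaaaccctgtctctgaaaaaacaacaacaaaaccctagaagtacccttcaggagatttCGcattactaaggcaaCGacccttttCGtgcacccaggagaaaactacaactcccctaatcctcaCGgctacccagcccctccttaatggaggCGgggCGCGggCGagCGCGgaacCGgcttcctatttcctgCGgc
The Suz12 sequence held 37 CpGs and the Ezh2 sequence held 23. Ezh1 had 14, L3mbtl2 had 13 and Eed had 12. Eed, whose peak was among the strongest by q score though not by log2 ratio in replicate 2, thus had the fewest CpGs of the 5 in this stretch. In the 1 kb around the start site the CpG frequency was 0.93 of that expected from base composition at Eed, 0.87 at Suz12, 0.97 at Ezh2, 0.80 at Ezh1 and 0.68 at L3mbtl2, which was the lowest of the 10 genes.

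Peak strength is given below as the q score and as the log2 ratio of ChIP over input, and then as a percentile. The percentile places the strongest promoter peak of a gene, by q score, among the strongest promoter peaks of all genes that had one (16417 genes in replicate 1 and 14310 in replicate 2). This scale was needed because the lists differed, with 58351 peaks in replicate 1 and 38832 in replicate 2, and median q scores of the strongest promoter peak of 165 and 78.8. The lists give no read counts per peak. By the read numbers stated with the study, replicate 2, which had the fewer peaks and the lower q scores, was the more deeply sequenced library. The cause of the difference between the lists was not tested.

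Among the PRC2 genes, Suz12, which encodes the scaffold on which the core complex is built, had q scores of 385 in replicate 1 and 191 in replicate 2. Its log2 ratios were 4.44 and 4.27, the closest pair among the 10 genes, and its percentiles were 88.2 and 93.6. The stretch common to both peaks was chr11:79992103-79994000, over the first exon of the gene.

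Eed, whose product binds trimethylated lysine 27 and stimulates the enzyme, had q scores of 442 and 143. The log2 ratio was 5.11 in replicate 1, the highest of the 10 genes, and 2.38 in replicate 2, the second lowest. Its percentiles by q score were 92.4 and 83.9, and the peaks shared chr7:89979731-89981478.

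The enzymes of PRC2 differed. Ezh2, the methyltransferase prominent in dividing cells, had q scores of 479 and 102, the first being the highest of the 10 genes in that replicate and the second the seventh highest in its own. Its log2 ratios were 4.71 and 2.24, and its percentiles were 94.1 and 64.7, the widest gap between replicates among the 10. Ezh1, its paralog with weaker activity, had q scores of 208 and 83.0, log2 ratios of 3.52 and 2.61 and percentiles of 60.4 and 52.9. Ezh1 lay below Ezh2 by q score in both replicates and the percentile ranges did not overlap, but by log2 ratio Ezh1 was lower in replicate 1 and higher in replicate 2. The shared stretch was chr6:47593888-47595852 at Ezh2 and chr11:101225685-101226771 at Ezh1. Ezh2 was the only one of the 10 genes with the start site of another curated gene within 1 kb, the lncRNA F830010H11Rik, which starts 179 bp upstream on the opposite strand, under the same peak. Among all genes 17.0% have such a neighbour. In GENCODE M21, which is not part of that count, a start site of E230029C05Rik lay under the Eed peak in both replicates.

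Jarid2 has 2 curated start sites, at chr13:44730774 and chr13:44731271, and a single peak lay over both in each replicate. This peak had q scores of 372 and 117, log2 ratios of 4.54 and 3.37 and percentiles of 87.1 and 73.4, and the peaks shared chr13:44729632-44731616. Jarid2 differed from the other 9 genes in having a second peak next to the first, described with the gene body.

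Among the PRC1 genes, Rnf2, which encodes the ubiquitin ligase, scored 423 and 118, with log2 ratios of 4.13 and 3.03 and percentiles of 91.1 and 74.1. The stretch in common was chr1:151499788-151501522. Bmi1, the PCGF subunit known for stem cell self-renewal, had q scores of 358 and 147, log2 ratios of 4.36 and 2.85 and percentiles of 85.9 and 85.0, the closest pair of percentiles of the 10. Its peaks were also the widest, at 2516 and 2437 bp, and shared chr2:18675851-18678277.

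Of the variant complex, Mga, Pcgf6 and L3mbtl2 had mean percentiles of 76.2, 51.3 and 49.7, while Rnf2, whose product binds PCGF6, was at 82.6. Among the further Polycomb genes described below, Tfdp1, E2f6 and Max of the same complex were at 83.5, 56.0 and 44.7. The complex as a whole thus had no common place in the order. Mga, a large protein with T-box and basic helix-loop-helix domains, had q scores of 315 and 113, log2 ratios of 4.34 and 2.67 and percentiles of 80.9 and 71.5. Pcgf6 had q scores of 158 and 85.7, log2 ratios of 2.998 and 2.64 and percentiles of 48.0 and 54.5, and L3mbtl2, whose protein carries domains that bind methylated lysine, had 181 and 72.2, log2 ratios of 4.49 and 2.58 and percentiles of 54.3 and 45.1. By q score Pcgf6 and L3mbtl2 thus sat near the middle of all genes with a promoter peak. By log2 ratio L3mbtl2 was at the 82.4 percentile in replicate 1 and the 40.1 percentile in replicate 2, and Pcgf6 at 22.8 and 44.4. The shared stretches were chr2:119896598-119898675 at Mga, chr19:47050027-47051158 at Pcgf6 and chr15:81663312-81664548 at L3mbtl2.

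**Figure D1:**
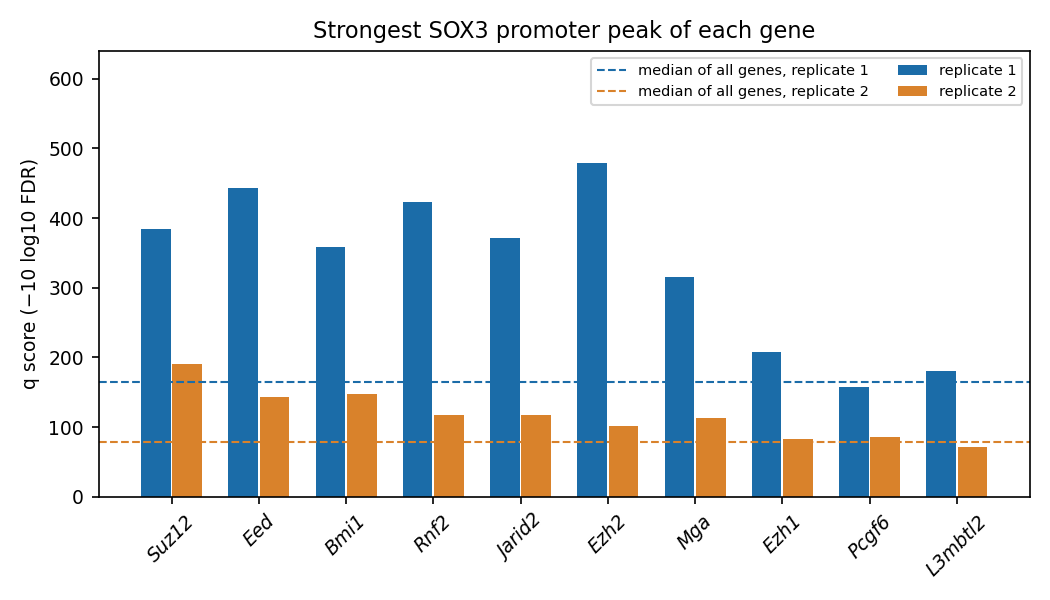
Bars give the q score (−10 log10 of the false discovery rate) of the strongest promoter peak of each gene in each replicate, with genes in order of mean percentile, and dashed lines give the median over all genes with a promoter peak. In replicate 1 only Pcgf6 (158) was below the median of 165, and in replicate 2 only L3mbtl2 (72.2) was below the median of 78.8.

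By mean percentile the order was Suz12, Eed, Bmi1, Rnf2, Jarid2, Ezh2, Mga, Ezh1, Pcgf6 and L3mbtl2. Of the 9 pairs of neighbours in this order only Mga and Ezh1 had replicate ranges that did not overlap, so that the first 7 genes were not told apart from their neighbours, nor were the last 3. Over all 45 pairs of the 10 genes, 26 had ranges that did not overlap. The median of the 10 genes was at the 86.5 percentile in replicate 1 and the 72.4 percentile in replicate 2, and their median of the mean over replicates was 79.8. The same median was 55.0 over the 13665 genes with a promoter peak in both replicates and 62.2 over those that are protein-coding, autosomal and CpG-rich. It was 80.3 for the 5 PRC2 genes and 76.2 for the 5 PRC1 genes. No test was made of these medians, since the genes are not replicates of one another.

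**Figure D2:**
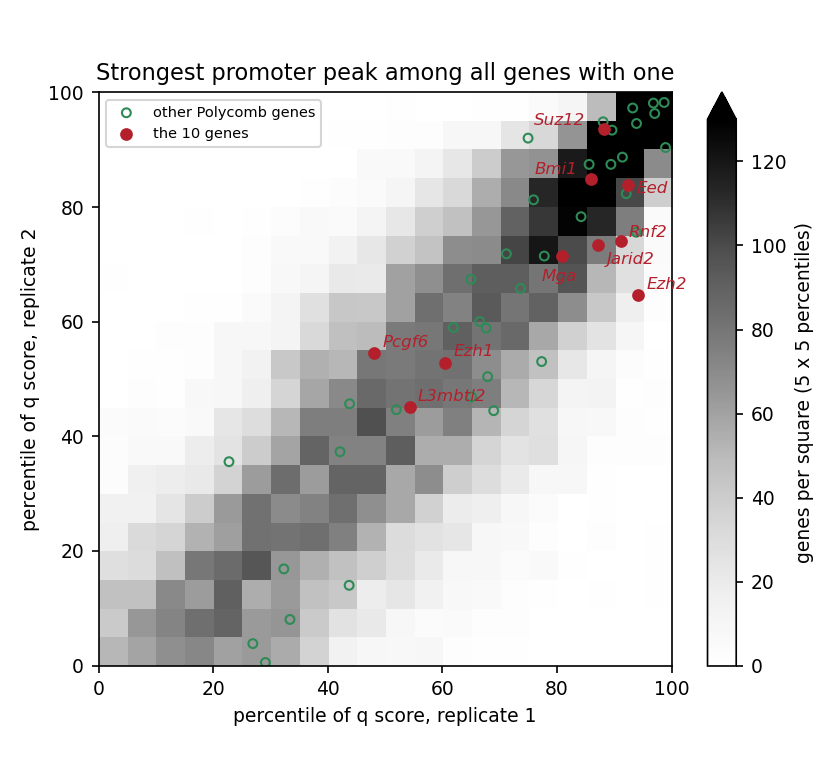
Each axis gives the percentile of the strongest promoter peak by q score in 1 replicate, grey squares count all genes with a peak in both, red points are the 10 genes and open circles the other Polycomb genes. Suz12, Eed and Bmi1 lay in the upper right corner, Ezh2 stood to the right of the diagonal at 94.1 and 64.7, and Ezh1, Pcgf6 and L3mbtl2 lay near the centre.

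The log2 ratio ordered the genes less steadily than the q score. It was higher in replicate 1 at 10 of 10 genes, as it was at 90.7% of all genes with a promoter peak in both replicates, and the median difference between replicates was 1.34 for the 10 genes and 1.11 for all. The difference ran from 0.17 at Suz12 and 0.36 at Pcgf6 to 2.47 at Ezh2 and 2.73 at Eed. Across the 10 genes the Spearman correlation between replicates was 0.58 for the q score and −0.30 for the log2 ratio, given as a description of 10 points that share their libraries. Ranked by log2 ratio among all genes, Eed was at the 94.3 percentile in replicate 1 and the 25.5 percentile in replicate 2, Ezh2 at 87.8 and 17.0, and Suz12 at 81.1 and 98.3. The median of the 10 genes on this scale was 62.0, beside 52.3 for all genes, which is nearer than by q score.

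**Figure D3:**
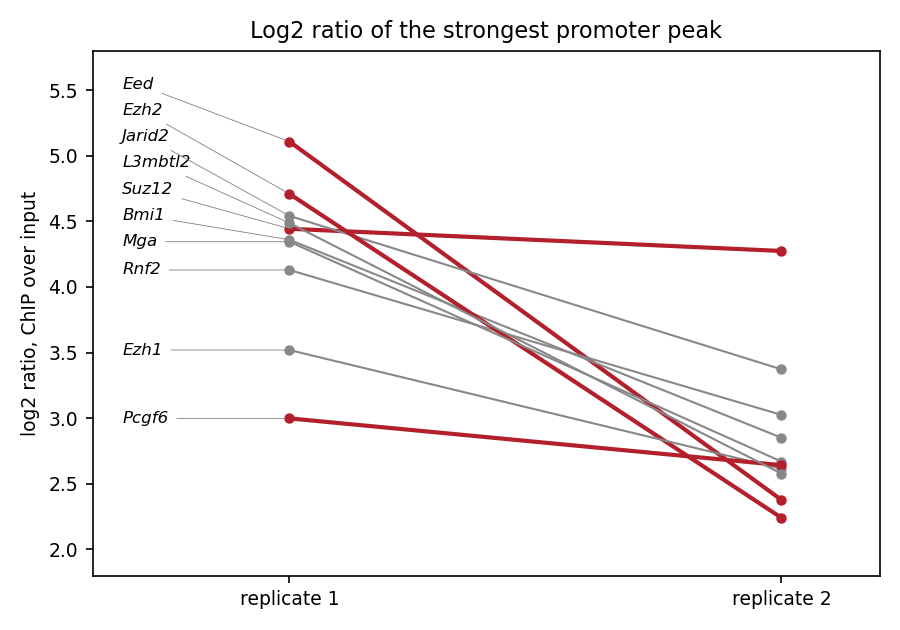
Points give the log2 ratio of ChIP over input of the strongest promoter peak in each replicate, joined by gene, with Eed, Ezh2, Suz12 and Pcgf6 in red. Suz12 stayed level (4.44 and 4.27), while Eed was 2.73 and Ezh2 was 2.47 higher in replicate 1.

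The peaks were broad and reached into the genes. Widths ran from 1569 to 2516 bp in replicate 1 and from 1087 to 2437 bp in replicate 2, and replicate 1 had the wider peak at 10 of 10 genes, as at 86.9% of all genes. Averaged over replicates, the peak extended a median of 665.5 bp upstream and 1201.5 bp downstream of the first start site, and it reached farther downstream at 8 of the 10 genes. The exceptions were Jarid2 and Suz12. For the 10920 protein-coding genes with a peak over a start site in both replicates the medians were 697.5 and 862.5 bp, and 67.8% reached farther downstream. At Pcgf6 the peak reached 1837 bp into the gene in replicate 1 and 879 bp in replicate 2, the largest difference in width of the 10 genes (2311 and 1132 bp).

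**Figure D4:**
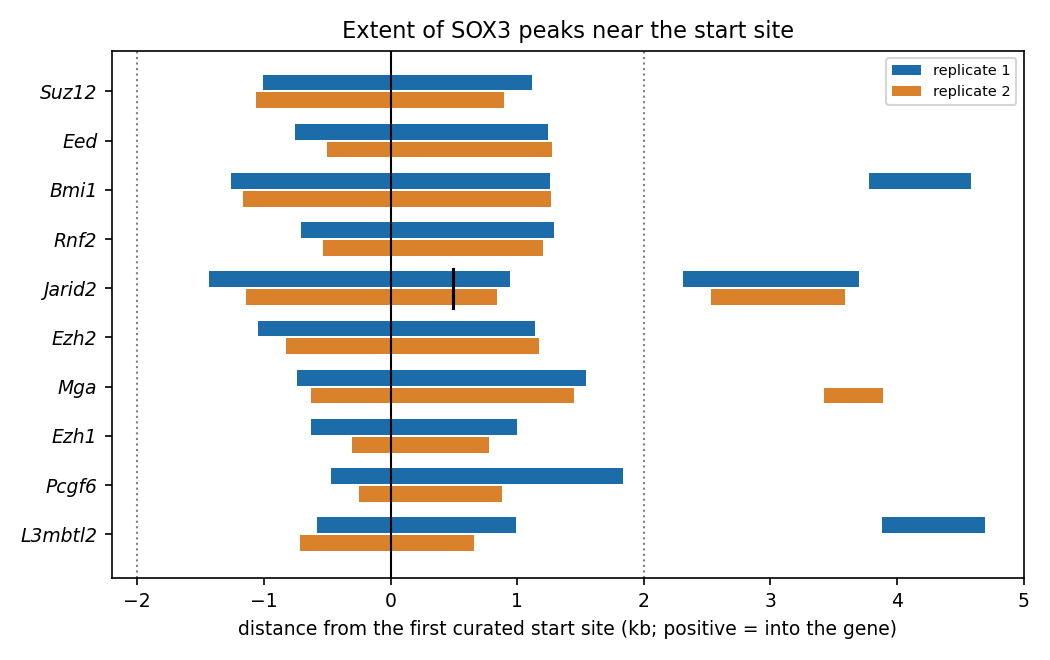
Horizontal bars show the SOX3 peaks of each replicate between 2.2 kb upstream and 5 kb downstream of the first curated start site (solid line), with 2 kb marked by dotted lines and the second start site of Jarid2 by a short bar. A peak covers the start site of every gene in both replicates, and farther in the only peaks of both replicates are at Jarid2.

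In the gene bodies, beyond 2 kb of any curated start site of the gene, 11 peaks were called in replicate 1 and 12 in replicate 2. Some lay over start sites that only other annotations list, as described below. They lay in Bmi1, Ezh1, Jarid2 and L3mbtl2 in replicate 1 and in Ezh1, Jarid2, L3mbtl2 and Mga in replicate 2. Thus 4 of 10 genes had a body peak in each replicate, against 35.7% and 27.9% of all genes and 54.9% and 43.7% of the protein-coding autosomal genes with a CpG-rich promoter. Ezh2, Eed, Suz12, Rnf2 and Pcgf6 had none. Body peaks of both replicates overlapped at 2 of the 10 genes, Ezh1 and Jarid2, against 13.3% of all genes and 20.9% of the CpG-rich ones. Pooled over the genes, there were 2.14 and 2.34 body peaks per 100 kb at the 10 genes, and 2.57 and 1.51 at all genes. Most of those at the 10 genes came from Jarid2 (5 and 6 peaks) and Ezh1 (2 and 4).

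Most body peaks had low q scores and were poor in CpG. Their median q score was 44.8 in replicate 1 and 38.3 in replicate 2, beside 358 and 115 for the peaks within 2 kb of a start site, and the median CpG frequency was 0.19 and 0.21 of expected, beside 0.86 and 0.87. By log2 ratio the difference was seen in replicate 1 only, where the median was 2.72 for body peaks and 4.36 for those near a start site, while in replicate 2 the medians were 2.57 and 2.66. Of the 11 body peaks of replicate 1, 4 overlapped a peak of replicate 2, and of the 12 in replicate 2, 5 overlapped a peak of replicate 1. Near the promoters every peak had an overlapping one in the other replicate (11 of 11 and 10 of 10).

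**Figure D5:**
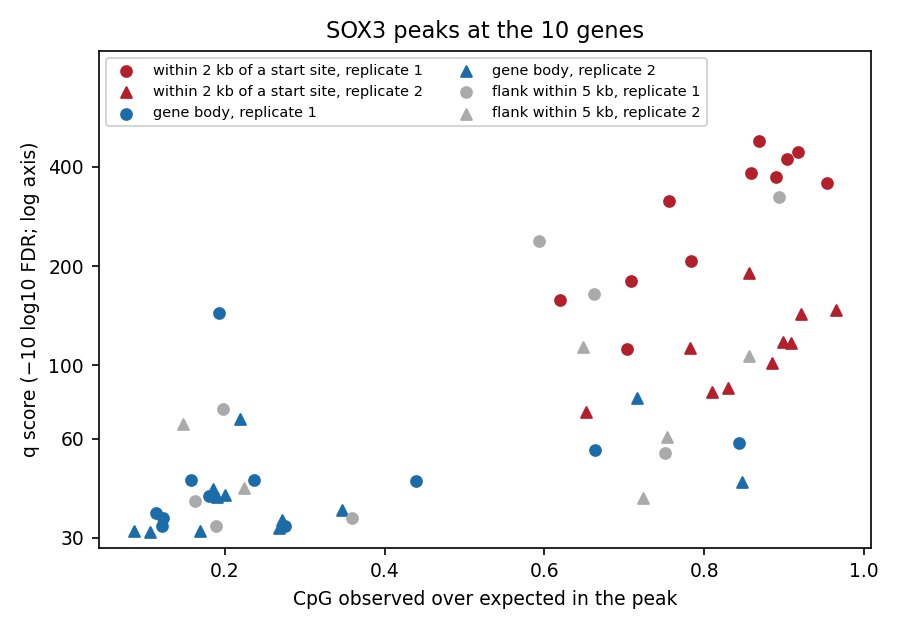
Each point is 1 peak at the 10 genes, with its CpG frequency over the expected on the horizontal axis and its q score on a log vertical axis, coloured by position and shaped by replicate. Peaks within 2 kb of a start site had CpG values from 0.62 to 0.97 and q scores from 72.2 to 479, and all but 4 of the 23 gene body peaks had CpG values at or below 0.44.

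Jarid2, the longest of the 10 genes at 190870 bp, held 5 body peaks in replicate 1 and 6 in replicate 2. The peak next to its promoter was at chr13:44733086-44734473 in replicate 1, with a q score of 113 and a log2 ratio of 3.69, and at chr13:44733304-44734364 in replicate 2, with 80.0 and 2.87. It lies in intron 2, has a CpG frequency of 0.70 and 0.72 of expected, and falls on the 2 kb limit, since its near edge was 1815 bp from the closest curated start site in replicate 1 and 2033 bp in replicate 2. It was therefore counted with the promoter in the first replicate and with the body in the second. A start site of Jarid2 in GENCODE M21 (44734040) and a predicted RefSeq one (44733673) lie under it in both replicates.

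A second place in Jarid2 that was called in both replicates was in intron 4, at chr13:44869317-44870298 and chr13:44869367-44870315. Its q scores were 58.1 and 44.5, but its log2 ratios were only 1.71 and 1.39. These were at the 0.181 and 0.0631 percentiles of all peaks in the lists, the lowest of any peak at the 10 genes. The stretch has a CpG frequency of 0.84 and 0.85 of expected, no start site within 28 kb in the annotations used, and 38.2% and 34.2% of its bases masked as repeats. In intron 3, peaks at 44840331-44840942 and 44839855-44840466 overlapped by 136 bp, with q scores of 44.8 and 40.02, and start sites predicted by RefSeq (44840820) and listed in GENCODE (44840691) lay under the first. The other Jarid2 body peaks were called in 1 replicate, with q scores from 33.9 to 44.8. One of them, in intron 18 in replicate 2 (q score 40.5), had a log2 ratio of 4.33, above that of each of the 10 promoter peaks in that replicate.

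At Ezh1 the strongest body peak of replicate 1, chr11:101187841-101192687, was 4847 bp wide, had a q score of 144 and ran over the 3′ end of the gene. Replicate 2 had a pair of narrower peaks under it, at 101191241-101192219 in the last exon (q score 42.3) and at 101189371-101190649 beyond the gene (66.4). The CpG frequency there was 0.15 to 0.19 of expected, unlike at the promoter. A weak peak in intron 15 was called in both replicates (q scores 32.6 and 32.1, overlap 442 bp). A peak in intron 17 with a q score of 68.7 and a log2 ratio of 4.15 was called only in replicate 2, as was one in intron 12 (31.5 and 2.48), and a start site of Ezh1 in GENCODE M21 lies under each (101194422 and 101200943).

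L3mbtl2 had 3 body peaks in replicate 1 (q scores 44.8, 32.6 and 35.7) and 1 in replicate 2 (31.2), and none overlapped. A start site of L3mbtl2 in GENCODE M21 (81675522) lies under the peak with 32.6. The single body peaks of Bmi1 (q score 55.5, replicate 1) and Mga (31.5, replicate 2) had no partner either. The Bmi1 peak, in intron 1 with a CpG frequency of 0.66, covers a start site of Bmi1 in GENCODE (18680994).

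The promoters were searched on both strands for 4 short motifs, in 300 bases from 250 before to 50 after each of the 11 start sites. The SOX core AACAAT was in 0 of 11, against 10.7% of all 32851 promoters in the table. At that share few of 11 promoters would hold it, so that the 0 says little. The SOX site ACAAAG was in 1, that of Ezh2, against 18.7%. The E2F site GCGGGAA was in 1, that of Suz12 (4.60% of all), and the E-box CACGTG in 1, that of Bmi1 (7.15% of all). In the stretches shared by the peaks of both replicates, AACAAT was found at 1 of 10 genes, Rnf2, with 2 matches, and at 26.8% of protein-coding genes. ACAAAG was in 7 of 10, all but Eed, Jarid2 and Pcgf6 (52.2% of protein-coding genes), GCGGGAA in 5 of 10 (31.4%) and CACGTG in 4 of 10 (30.2%). The shares in the shared stretches also depend on length, since a longer stretch holds more matches. All the motif shares depend on base composition too. The median GC content in the 1 kb around the start site was 64.4% for the 10 genes. It was 54.7% for all genes and 56.2% for protein-coding genes. CpG-rich promoters were not compared separately for the motifs. Per kb of shared stretch, CACGTG had 0.29 matches at the 10 genes and 0.26 at protein-coding genes. The rates were 0.81 and 0.58 for ACAAAG, 0.46 and 0.26 for GCGGGAA, and 0.12 and 0.22 for AACAAT. No test was made of them. A match says only that the letters are there.

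A list of 38 further Polycomb genes, made up of the remaining textbook subunits of PRC1, PRC2 and the H2A deubiquitinase complex with the demethylases of lysine 27, was read out in the same way. Of these, 36 had a promoter peak in both replicates (94.7%), 33 had one over a start site in both and 31 had q scores above 60 in both. The median of their mean percentiles was 70.6, ranging from 14.8 to 98.5. Among the highest were Kdm6b, a lysine 27 demethylase (98.5), the RNF2 partner Rybp (96.7), the histone chaperone Rbbp4 (95.2) and Ring1, the paralog of Rnf2 (94.7). None of the 10 genes reached these values, Suz12 being highest at 90.9. The peaks at Kdm6b were also far wider, at 7281 and 8513 bp.

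The lowest were Asxl3, of the deubiquitinase complex (14.8), the PRC2 accessory gene Phf19 (15.4), the variant PRC1 subunit Bcor (20.7), the PRC2 accessory gene Epop (24.6) and Bcorl1 (28.9), each below L3mbtl2 at 49.7. The only genes without a promoter peak in both replicates were Ezhip, an inhibitor of EZH2 (replicate 1 only, q score 58.4), and Scml2, a germline PRC1 subunit with none. Neither had a CpG-rich promoter (CpG frequency 0.55 and 0.35 of expected). The remaining genes of the list without such a promoter, among them Kdm6b, had a promoter peak in both replicates. Ezhip and Scml2 are both on the X chromosome, where 30.9% of protein-coding genes had a promoter peak in both replicates. Bcor, Bcorl1, Kdm6a (60.5) and Rbbp7 (86.5) are also X-linked, but had CpG-rich promoters and a promoter peak in both. The cause of the missing peaks was not tested. The 10 genes are all autosomal.

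ChIP-nexus, in which an exonuclease trims the precipitated DNA toward the bound protein, gave lists of 111 and 19 regions. None of the 110 and 18 on mouse chromosomes lay at any of the 10 genes, within 2 kb or within 5 kb. Lists this short could have covered few genes, and nothing about SOX3 at these promoters follows from it.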

How the data were processed

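The 10 genes and the list of 38 further Polycomb genes were chosen with earlier results of these data known. The labels name 19 samples, of which 4 were used. For SOX3 ChIP-seq the authors aligned reads to mm10 with Novoalign, placing reads that fit several sites at random, removed duplicates with Picard and called peaks in each replicate with USeq, keeping scores above 30. The deposited lists have no header, and the names p score, q score (a score of −10 log10 of the false discovery rate) and log2 ratio, which the authors normalised to input, were inferred from the caller's layout and the values. The deposited ChIP-nexus lists, in the format of MACS (version 2.1.1 per the labels), hold a score, a fold enrichment ratio and −log10 p and −log10 q, of which only positions were used here. A blacklist filter was not used here.

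Start sites were those of 45756 curated RefSeq transcripts. A promoter peak lay within 2 kb of one, and a body peak lay within the gene but beyond 2 kb of its start sites. CpG-rich means a GC content of at least 50% and a CpG frequency of at least 0.6 of expected in the 500 bases to each side of the start site. The named genes were all 10, and of the other list those without a promoter peak in both replicates and the 5 highest and 5 lowest by mean percentile, of which 1 gene is not reported here. Kdm6a and Rbbp7 were named after their values were seen, to complete the X-linked genes of that list. Tfdp1, E2f6 and Max were likewise named afterwards, to complete its genes of the variant complex. No test was made, since there was 1 condition with 2 replicates. The assignment of peaks to genes was tested on simulated data (200 of 200 planted promoter peaks found, 0 of 200 beyond the window) and gave the same gene counts as bedtools 2.31.1 (16417 and 14310). Calculations used Python 3.11.15, NumPy 2.4.6 and pandas 2.3.3. Alternatives were a stricter score, other windows, GENCODE M21, overlap rules, another ranking, other reference genes and leaving out each replicate.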

Additional observations from a re-analysis of the deposited data

How the results depend on the processing

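Of 27 alternative values for the 4 main counts and medians, 23 stayed within the spread between replicates or within 1.5 times the count. Those that left out 1 replicate say little. They cannot lower a count of genes with a peak in both replicates. For the median, the allowed spread was itself taken from the 2 replicates, so that leaving out 1 could hardly exceed it. All 10 genes kept a promoter peak in both replicates under each alternative run (q score above 60, windows of 1 and 5 kb, GENCODE M21, and peaks required to overlap by 1 bp or by 50%), and 10 had one without either replicate. The count of other Polycomb genes ranged from 31 (q score above 60) to 36, and was 36 to 37 without 1 replicate. The median percentile of 79.8 moved to 62.0 when peaks were ranked by log2 ratio instead of q score, and the cause was not tested. It was 74.7 among protein-coding autosomal genes with a CpG-rich promoter, a reference chosen after seeing the data, where Ezh1, Pcgf6 and L3mbtl2 lay at 44.4, 37.9 and 36.4, and it was 72.4 to 86.5 without 1 replicate. The 23 gene body peaks fell to 3 with a q score above 60, were 24 beyond 1 kb and 19 beyond 5 kb, and were 11 to 12 without 1 replicate, since the count adds both. Body peaks were not recounted with GENCODE M21. No paired analysis was possible because the results come from no test. With 2 replicates and no read counts per peak, no interval was given for a peak, and an absent peak says only that none passed the caller's threshold.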

Other observations

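Within 5 kb outside the 10 genes, peaks of both replicates mostly lay at start sites of neighbouring genes. The peak upstream of Bmi1 (q scores 325 and 107) covers the start site of Commd3, whose gene precedes Bmi1 on the same strand, and its near edge was 3720 and 3643 bp from the Bmi1 start site. The peak beyond the 3′ end of Mga (238 and 113) covers the start site of Mapkbp1, and the one beyond L3mbtl2 (164 and 39.5) covers a start site of Chadl in GENCODE M21. A CpG-rich peak downstream of Bmi1 (54.2 and 60.9, CpG frequency 0.75 of expected in both) had no curated start site within 8 kb, but the start of a predicted RefSeq gene, Gm46725, lay under it. A peak upstream of Ezh1 (74.0 and 42.6) had a CpG frequency of 0.20 and 0.22 and no start site under it in any annotation used.

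Weak peaks in these lists often carry identical values. Below a q score of 40, the 25995 peaks of replicate 1 hold only 70 distinct pairs of q score and log2 ratio, and the 19816 of replicate 2 hold 102. A body peak of Ezh1, one of L3mbtl2 and one beyond Rnf2 share a q score of 32.6 and a log2 ratio of 2.63 with 2574 peaks in all. A body peak of Jarid2 and one of L3mbtl2 share 44.8 and 3.63 with 832 in all. Of the body peaks of the 10 genes, 9 of 11 in replicate 1 and 7 of 12 in replicate 2 had values held by at least 100 peaks. None of the peaks within 2 kb of a curated start site of these genes did.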
